A study of Mus musculus with 12 samples.

Results

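The genes described here encode the constitutive subunits of the proteasome. They are the genes whose symbol is Psma, Psmb, Psmc or Psmd followed by a number, without the interferon-inducible catalytic subunits Psmb8, Psmb9 and Psmb10, and they number 36 of the 27179 genes measured. Of these, 8 are Psma genes, 8 are Psmb genes, 6 are Psmc genes and 14 are Psmd genes. RNA was sequenced from hearts of C57Bl/6J mice, 12 weeks old, with no transgene or deletion named in the labels. The 4 groups were transverse aortic constriction (TAC) on a fat-free diet (0 kcal% fat, n = 3), sham surgery on the fat-free diet (n = 3), TAC on a high-fat diet (60 kcal% fat, n = 3) and sham surgery on the high-fat diet (n = 2, as the first replicate of that group was not used here). In TAC a suture narrows the aorta and raises the pressure against which the left ventricle pumps. Mice were put on their diet 4 days before surgery and hearts were taken 1 week after it. Each diet was thus compared at 1 time point only.

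The proteasome degrades proteins that carry ubiquitin chains. Its core particle, called 20S, is a stack of rings made of alpha (Psma) and beta (Psmb) subunits, and the beta subunits Psmb5, Psmb6 and Psmb7 cut peptide bonds inside the chamber. The 19S cap holds a ring of ATPases (Psmc) that unfold and thread the substrate and a set of non-ATPase subunits (Psmd) that bind, deubiquitinate and position it. In muscle the complex degrades sarcomeric and other proteins during remodelling and takes misfolded proteins in stressed cells. In cells with blocked proteasomes the transcription factor Nfe2l1 is known to raise these genes together through antioxidant response elements in their promoters.

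Upstream sequences are shown because the members are known to be regulated as a group. RefSeq promoter windows (GRCm38.p6, the same coordinates as mm10), from 250 bases before to 50 after a start site, were found for 29 of the 36 genes, 31 windows in all. The windows below, each of 150 bases, end just before the RefSeq start and overlap no annotated exon. They are 4 examples that hold a searched motif, among a catalytic subunit whose RNA fell on the high-fat diet under the authors' scaling (Psmb6), the receptor subunit Psmd4 and the 19S subunits Psmd11 and Psmd2. Capitals mark the motif, read on either strand.
Psmb6, chr11:70525207-70525356, plus strand, antioxidant response element core: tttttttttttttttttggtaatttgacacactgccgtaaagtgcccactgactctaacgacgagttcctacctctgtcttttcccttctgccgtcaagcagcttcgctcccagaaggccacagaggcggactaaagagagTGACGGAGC
Psmd4, chr3:95042615-95042764, minus strand, ETS motif and CCAAT box: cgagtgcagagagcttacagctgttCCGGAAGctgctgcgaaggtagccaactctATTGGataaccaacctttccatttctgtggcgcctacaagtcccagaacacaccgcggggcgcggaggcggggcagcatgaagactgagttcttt
Psmd11, chr11:80428465-80428614, plus strand, ETS motif: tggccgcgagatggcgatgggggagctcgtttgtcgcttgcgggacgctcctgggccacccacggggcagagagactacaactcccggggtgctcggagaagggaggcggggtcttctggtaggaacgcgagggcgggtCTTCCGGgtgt
Psmd2, chr16:20651502-20651651, plus strand, ETS motif: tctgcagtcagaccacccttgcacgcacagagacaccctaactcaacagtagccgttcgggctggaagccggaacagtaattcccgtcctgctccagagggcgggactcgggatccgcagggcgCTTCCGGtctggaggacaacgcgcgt

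The ETS motif, CCGGAAG, was in 11 of the 31 member windows, or 35.5%, against 8.86% of the 32851 windows of all genes and 16.1% of the 14134 windows of genes tested in these hearts. It was in windows of Psma6, Psmc1, Psmc2, Psmc6, Psmd2, Psmd4, Psmd6, Psmd11, Psmd12 and Psmd13, and in none of the windows found for Psmb genes. Psma8, Psmb1, Psmb2, Psmb7, Psmc3, Psmd3 and Psmd7 had no window and were not searched. The CCAAT box, CCAAT, was in 38.7% of member windows, 37.4% of all windows and 37.3% of those of genes tested here. The antioxidant response element core, TGACNNNGC, was in 5 member windows (Psmb5, Psmb6, Psmc6, Psmd9 and Psmd12), or 16.1%, against 12.4% of all windows and 14.3% of those of genes tested here. The palindromic motif of NRF1, here nuclear respiratory factor 1 and not Nfe2l1, is GCGC on either side of AT. It was in 1 member window (Psma2), or 3.23%, against 0.971% of all windows and 1.86% of those of genes tested here. Both strands were searched for all 4 motifs, and no member window had 2 different motifs that overlapped. These are matches of letters and were given no test.

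Library totals ran from 25906622 to 39699027 normalized counts, the authors' read counts divided by a size factor within each diet. Transcripts of the mitochondrial genome took 20.8% to 23.6% of counts in fat-free TAC libraries, 26.2% to 28.4% in fat-free sham, 18.1% to 25.3% in high-fat TAC and 32.5% to 32.7% in high-fat sham libraries. The summed markers of cardiomyocytes (8 of 8 detected), the cells the tissue label implies, ran from 1133690 to 1474409 in fat-free TAC, 1523911 to 1632868 in fat-free sham, 735011 to 1312486 in high-fat TAC and 1807628 to 1912775 in high-fat sham. Fibroblast markers (8 of 8) summed to 56564 to 196774 in fat-free TAC and 23092 to 41131 in fat-free sham, and to 103810 to 364915 in high-fat TAC and 28258 to 34012 in high-fat sham. Macrophage markers (10 of 10) summed to 14608 to 23408 in fat-free TAC and 8298 to 10188 in fat-free sham, and to 11857 to 19894 in high-fat TAC and 6927 to 8510 in high-fat sham. In RNA of heart tissue, fewer cells of a type and less RNA per cell cannot be told apart. The part of these shifts in the results below was not tested. High-fat TAC replicate 1 stood apart, with 500964 summed counts of atrial muscle markers (8 of 8) against 34764 and 107367 in the other 2 libraries of its group. The atrial myosin gene Myl7 had 14839 counts in that library and 1758 in fat-free TAC replicate 1. It had 9915 and 8426 in fat-free sham replicates 1 and 3. In the remaining libraries it had 4 to 274, so that atrial RNA was uneven among libraries. The marker sum did not follow Myl7, so that it cannot be read as an amount of atrial tissue. High-fat TAC replicates 2 and 3 had sums of 34764 and 107367 with Myl7 at 10 and 6. High-fat sham replicates 2 and 3 had sums of 1155 and 1953 with Myl7 at 4 and 6. Fat-free TAC replicate 2 had a sum of 67038 with Myl7 at 23, and fat-free sham replicate 1 had 53806 with Myl7 at 9915. Nothing in the labels ties each library to an animal of its own, so that p-values cover only the spread among these libraries, which may be technical.

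Nearly every subunit gene was transcribed in every group, in an order that was broadly alike, though single genes moved in it. Psmb11, a thymus subunit, was at 0 counts in all 11 libraries, which for counting error alone allows up to 3 counts in each. Psma8, a testis paralog of Psma7, had 23, 29 and 42 normalized counts in fat-free TAC, against 18, 30 and 18 in fat-free sham, and 32, 37 and 30 in high-fat TAC, against 23 and 51 in high-fat sham. Its groups overlapped on both diets, and its levels were a small fraction of those of the other members.

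Per kilobase of gene length, Psmb7, the trypsin-like catalytic subunit, was highest in all 4 groups. It averaged 4799 ± 374 normalized counts per kb in fat-free TAC and 5171 ± 402 in fat-free sham (SD, n = 3 each), and 4603 ± 465 in high-fat TAC (n = 3) and 5841 ± 94.1 in high-fat sham (n = 2). Among the 14 subunits that build the 20S core in these hearts, the alpha subunit Psma5 was lowest, at 851.5 ± 95.8 in fat-free TAC, 771 ± 84.7 in fat-free sham, 968 ± 57.1 in high-fat TAC and 992.6 ± 32.5 in high-fat sham. Among the 17 integral 19S subunits the ATPase Psmc3 was highest, at 3233 ± 243 in fat-free TAC, 3637 ± 190 in fat-free sham, 3016 ± 257 in high-fat TAC and 3956 ± 135 in high-fat sham. The deubiquitinase subunit Psmd14 was the lowest of those 17 on the fat-free diet and the scaffold subunit Psmd11 on the high-fat diet. The 3 Psmd genes that act as 19S assembly chaperones and not as subunits, Psmd5, Psmd9 and Psmd10, lay lower, with group means of 214.2 to 334.6 per kb. The order of the 36 genes by group mean was alike between groups (Spearman's rho 0.971 to 0.989 over 36 genes, a description, since all groups share gene lengths and the counting). Of 34 pairs of neighbours in this order, the ranges over libraries overlapped for 30 in fat-free TAC, 26 in fat-free sham and 30 in high-fat TAC. They overlapped for 15 in high-fat sham, where only 2 libraries set the range. Psmd8 was at rank 20 in both sham groups, 13 in fat-free TAC and 12 in high-fat TAC. Psmd12 was at rank 18 in fat-free sham, 21 in fat-free TAC, 15 in high-fat sham and 20 in high-fat TAC.

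**Figure D1:**
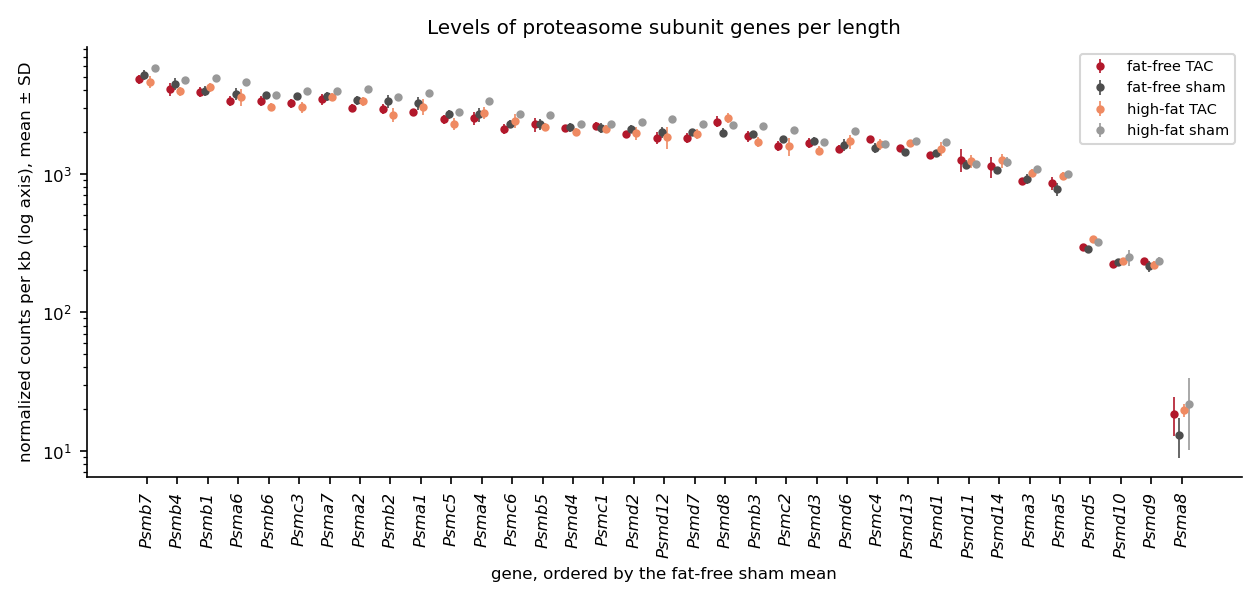
Normalized counts per kilobase of gene length (log axis) for 35 members, ordered by the fat-free sham mean, with mean and SD of each group (n = 3, and n = 2 for high-fat sham). Psmb7 is highest in all 4 groups, Psmd5, Psmd9 and Psmd10 lie between 214.2 and 334.6, and Psma8 lies below 30 in every group mean.

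On the high-fat diet 7 of the 35 members tested, or 20%, fell in TAC hearts at an adjusted p below 0.1 on the authors' deposited scaling. None of the members rose. Of the 14274 genes tested 14.8% fell and 16.9% rose, or 31.7% in either direction. Members were thus called lower somewhat more often than genes, and called in either direction less often. These calls were lost under the rescalings given below and without some single libraries. The 7 members that fell were the alpha subunit Psma2, the ATPase Psmc3 and 5 of the 7 beta subunits tested. Those 5 were Psmb2, Psmb3, Psmb5, Psmb6 and Psmb7. The members' median log2 fold change was -0.22, beside -0.01 for all genes tested. The sign of these values depended on the scaling. Rescaling to equal library totals moved the median of all genes to 0.40 and that of the members to 0.20, with 13 members called higher and 0 lower, against 44.4% and 3.96% of genes on that scale. Rescaling to equal totals outside the mitochondrial genome moved them to 0.21 and 0.01, with 2 members called higher and 0 lower, against 27% and 7.04% of genes. The members' median lay 0.20 below that of all genes (a difference of -0.20), and 30 of the 35 lay below that median. A rescaling multiplies each library by 1 factor, so that a like distance under each scaling is no separate support, and it was given no test. Directions below are those of the deposited scaling, and all 7 falls were lost under both rescalings.

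On the deposited scaling, groups of the high-fat diet did not overlap for 23 members, all lower in TAC. These were 65.7% of those tested, against 33.1% of all genes tested lower without overlap. None was higher without overlap, against 30.6% of genes. This too turned with the scaling. Rescaled to equal library totals, 0 members were lower and 27 higher without overlap, against 9.69% and 64% of genes. Rescaled to totals outside the mitochondrial genome, 10 were lower and 10 higher, against 18.2% and 48%. Calls also rested on few libraries: with high-fat sham replicate 2, high-fat sham replicate 3 or high-fat TAC replicate 3 left out, 0 members were called lower, and without high-fat TAC replicate 1, the library rich in atrial RNA, 14 were. With log2 of the Myl7 count as a covariate 12 were called lower. Myl7 was 14839 in high-fat TAC replicate 1 and 4 to 10 in the other high-fat libraries. This covariate thus nearly marks that library alone, and the fit is no separate support. The shares of all genes called in these refits are not given here. A larger count of members is thus not shown to be particular to them. The authors' deposited table, from DESeq2, had 17 members lower at adjusted p below 0.1 and 0 higher, against 17.7% and 19.8% of its genes, and its 17 included all 7.

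**Figure D2:**
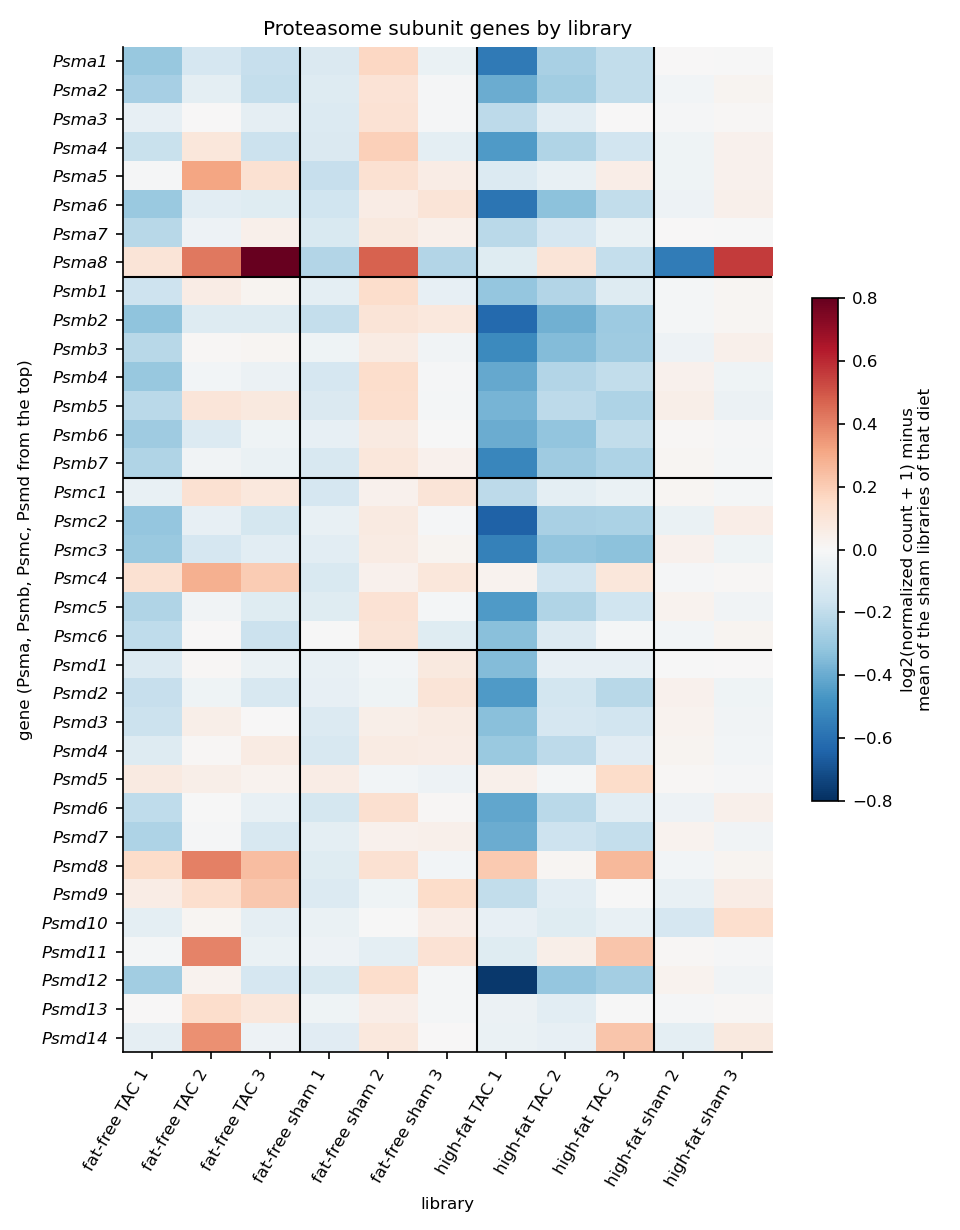
Log2(normalized count + 1) of 35 members (rows) in each library (columns, TAC left of sham within each diet), minus the mean of the sham libraries of the same diet, on the deposited scaling. The 3 high-fat TAC libraries are below the sham mean for most genes, lowest in replicate 1, while Psmd8 is above it in all 6 TAC libraries.

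All 7 beta subunits tested lay below 0 on the high-fat diet on the deposited scaling, with a median of -0.30, and 5 passed the test. Psmb5, the chymotrypsin-like catalytic subunit and the main target of proteasome inhibitor drugs (chromosome 14, 54614120 to 54617995, minus strand, mm10), had 1774, 1988 and 1936 normalized counts in high-fat TAC, against 2372 and 2226 in high-fat sham (log2 fold change -0.28 ± 0.10 SE, adjusted p = 0.0999). Psmb6, the caspase-like subunit (chromosome 11, 70525357 to 70527858), had 2935, 3104 and 3362 in high-fat TAC, against 3887 and 3831 in high-fat sham (-0.30 ± 0.10, adjusted p = 0.0889). Psmb7 (chromosome 2, 38588046 to 38643906) had 3945, 4656 and 4779 in high-fat TAC, against 5724 and 5595 in high-fat sham (-0.35 ± 0.12, adjusted p = 0.0954). In all 3 catalytic genes each TAC library was below both sham libraries. Fat-free groups overlapped for all 3. Psmb5 had 1711, 2124 and 2094 normalized counts in fat-free TAC, against 1828, 2179 and 1960 in fat-free sham (-0.01 ± 0.12, adjusted p = 0.954). Psmb6 had 3151, 3558 and 3748 in fat-free TAC, against 3670, 4034 and 3828 in fat-free sham (-0.14 ± 0.09, adjusted p = 0.33), and Psmb7 had 4235, 4905 and 4811 in fat-free TAC, against 4578, 5333 and 5122 in fat-free sham (-0.11 ± 0.10, adjusted p = 0.492).

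Psmb2 and Psmb3, structural subunits of the beta ring, had the lowest adjusted p of the members on the high-fat diet. Psmb2 (chromosome 4, 126677643 to 126709715) had 1976, 2330 and 2485 normalized counts in high-fat TAC, against 3008 and 3080 in high-fat sham (-0.43 ± 0.12, adjusted p = 0.0698). Psmb3 (chromosome 11, 97703434 to 97713500) had 1138, 1270 and 1331 in high-fat TAC, against 1574 and 1664 in high-fat sham (-0.38 ± 0.11, adjusted p = 0.0676). Neither gene's groups overlapped. In fat-free hearts Psmb2 had 2255, 2618 and 2614 normalized counts in TAC, against 2464, 3026 and 2985 in sham (-0.18 ± 0.11, adjusted p = 0.314). Psmb3 had 1213, 1426 and 1434 in fat-free TAC, against 1382, 1481 and 1389 in fat-free sham (-0.07 ± 0.10, adjusted p = 0.681). These fat-free groups overlapped for both genes. Psmb1 and Psmb4 did not pass on either diet, at -0.22 and -0.28 on the high-fat diet.

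The alpha subunits form the outer rings and the gate of the core. On the high-fat diet all 8 lay below 0 on the deposited scaling, with a median of -0.21, and 1 fell. Psma2 (chromosome 13, 14613242 to 14625673) had 2915, 3171 and 3346 normalized counts in high-fat TAC, against 3780 and 3902 in high-fat sham (-0.29 ± 0.10, adjusted p = 0.0971). Psma1 had 3258, 4028 and 4201 in high-fat TAC, against 4832 and 4809 in high-fat sham (-0.34 ± 0.14, adjusted p = 0.125), and Psma6 had 3052, 3647 and 4005 in high-fat TAC, against 4452 and 4714 in high-fat sham (-0.37 ± 0.14, adjusted p = 0.112). The estimates for Psma1 and Psma6 were further from 0 than that of Psma2, but their TAC libraries were more spread, with replicate 1 lowest, and neither passed. In fat-free hearts Psma2 had 2664, 3038 and 2806 in TAC, against 2983, 3454 and 3189 in sham (-0.18 ± 0.09, adjusted p = 0.231). Psma1 had 3258, 3668 and 3531 in fat-free TAC, against 3710, 4508 and 3880 in fat-free sham, with no overlap (-0.21 ± 0.10, adjusted p = 0.2). Psma6 had 3051, 3535 and 3501 in fat-free TAC, against 3352, 3911 and 4027 in fat-free sham, with overlap (-0.16 ± 0.11, adjusted p = 0.328). Psma5 lay above 0 on the fat-free diet (0.14 ± 0.12, adjusted p = 0.462) and near 0 on the high-fat diet (-0.04 ± 0.10, adjusted p = 0.792).

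The 6 ATPases were less uniform than the beta subunits. Psmc3 (chromosome 2, 91054016 to 91059438) had 4447, 5188 and 5158 normalized counts in high-fat TAC, against 6624 and 6312 in high-fat sham, and fell on the deposited scaling (-0.39 ± 0.12, adjusted p = 0.072). Psmc2 had 2337, 3060 and 3068 in high-fat TAC, against 3529 and 3788 in high-fat sham, without overlap and without passing (-0.39 ± 0.15, adjusted p = 0.118). Psmc4 (chromosome 7, 28041702 to 28050092) had 2407, 2122 and 2515 in high-fat TAC, against 2346 and 2371 in high-fat sham (-0.01 ± 0.11, adjusted p = 0.953), so that its sham libraries lay within the TAC range. In fat-free hearts Psmc3 had 4838, 5422 and 5597 in TAC, against 5605, 6214 and 6019 in sham (-0.17 ± 0.09, adjusted p = 0.241), and Psmc2 had 2554, 3020 and 2867 in fat-free TAC, against 3033, 3326 and 3144 in fat-free sham (-0.17 ± 0.09, adjusted p = 0.239). Both were lower in TAC without overlap. Psmc4 went the other way, with 2399, 2679 and 2542 in fat-free TAC, against 2022, 2256 and 2345 in fat-free sham, also without overlap (0.20 ± 0.09, adjusted p = 0.171).

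On the high-fat diet the non-ATPase genes had the widest spread of estimates of the 4 families, and 0 of the 14 passed on either diet. Psmd12, a lid subunit (chromosome 11, 107479528 to 107498036), had the lowest estimate of all members on the high-fat diet, with 2506, 3452 and 3547 normalized counts in TAC, against 4360 and 4191 in sham (-0.45 ± 0.17, adjusted p = 0.115). Its TAC libraries lay below both sham libraries, replicate 1 by most. Psmd8, another lid subunit, whose yeast counterpart joins the lid last (chromosome 7, 29174187 to 29180673), had 3952, 3456 and 4092 in high-fat TAC, against 3365 and 3480 in high-fat sham (0.16 ± 0.11, adjusted p = 0.32), the highest estimate. In fat-free hearts Psmd8 had 3310, 3946 and 3541 in TAC, against 2795, 3241 and 2934 in sham, without overlap (0.27 ± 0.10, adjusted p = 0.111), and Psmd12 had 2816, 3479 and 3107 in TAC, against 3138, 3765 and 3371 in sham, with overlap (-0.13 ± 0.11, adjusted p = 0.457). Psmd7, the partner of the deubiquitinase Psmd14, had 2797, 3286 and 3230 in high-fat TAC, against 3754 and 3607 in high-fat sham (-0.25 ± 0.11, adjusted p = 0.152). It had 2673, 3160 and 2906 in fat-free TAC, against 3011, 3261 and 3268 in fat-free sham (-0.13 ± 0.09, adjusted p = 0.374). Of the other 11, estimates on the high-fat diet ran from -0.27 for the base scaffold Psmd2 to 0.06 for Psmd5, with Psmd11 and Psmd14 also above 0 at 0.06 and 0.04.

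**Figure D3:**
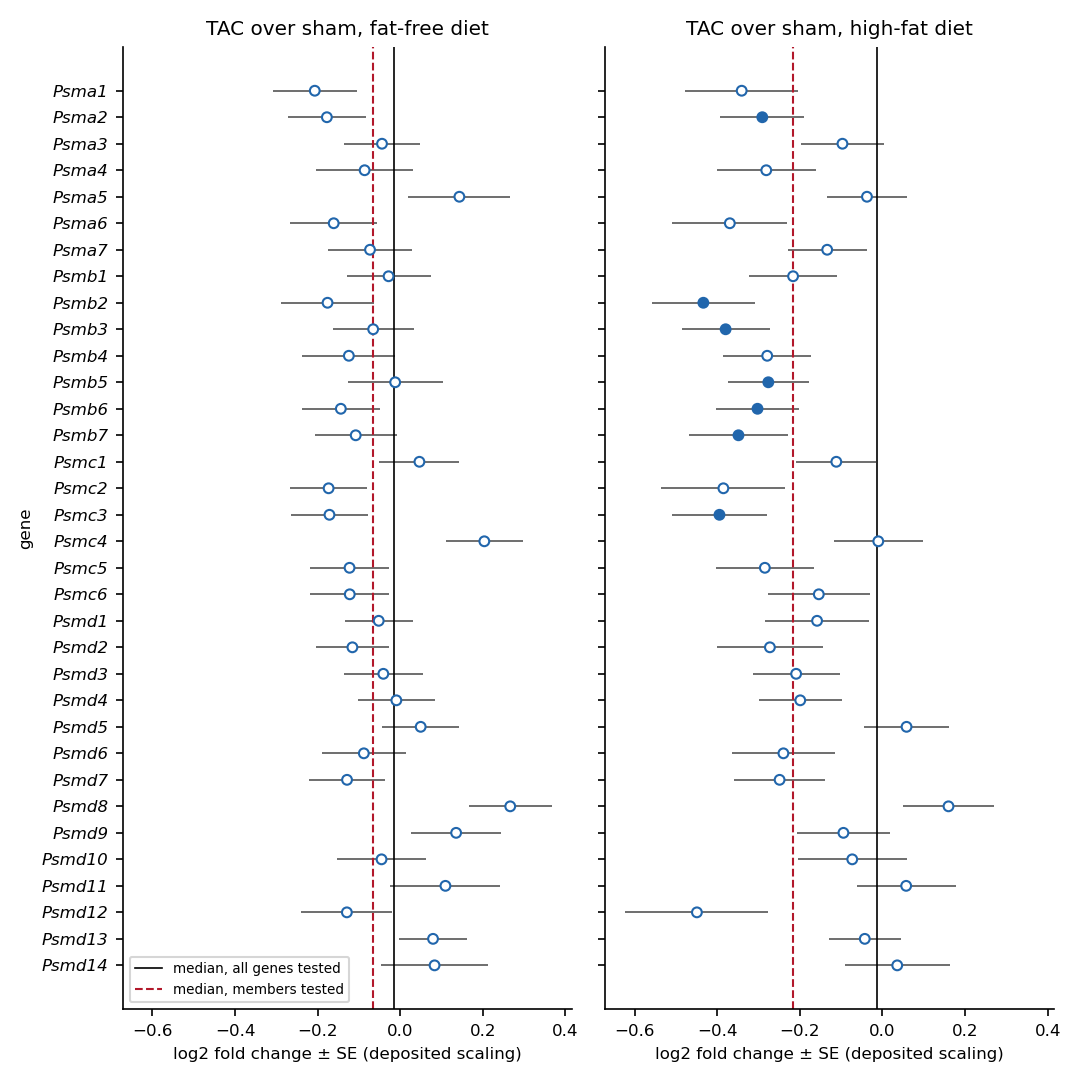
Log2 fold change of TAC over sham (points, with SE bars) for 34 members in limma on the deposited scaling, fat-free diet left and high-fat diet right, with Psma8 left out for its low counts. Filled points passed adjusted p below 0.1; the 7 filled points are all on the high-fat diet, where the members' median (dashed) is -0.22 and that of all genes (solid) is -0.01.

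On the fat-free diet 0 of the 35 members passed the test in limma, against 24.2% of the 13995 genes tested. At an unadjusted p below 0.05 there was 1 member higher (Psmd8) and 0 lower, against 32.4% of genes in either direction. The authors' deposited table, from DESeq2, also had 0 members at adjusted p below 0.1, against 14.3% of its genes higher and 9.92% lower. The members' median log2 fold change was -0.07 against -0.02 for all genes. Groups did not overlap for 2 members higher in TAC (Psmc4 and Psmd8) and 3 lower (Psma1, Psmc2 and Psmc3), 5.71% and 8.57% of those tested, against 19.7% and 17.6% of genes. Under rescaling to library totals 3 members were called higher, against 19.9% of genes. Rescaled to equal totals outside the mitochondrial genome, Psmc4 and Psmd8 rose (0.24, adjusted p = 0.0997, and 0.30, adjusted p = 0.0578), the 2 members called on that scale, against 14.7% of genes called higher. With log2 Myl7 as a covariate on the deposited scaling, 6 members were called lower. The share of all genes called in that fit is not given here. On the deposited scaling the 95% intervals of the catalytic genes ran from -0.28 to 0.25 for Psmb5, -0.36 to 0.07 for Psmb6 and -0.34 to 0.12 for Psmb7.

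Whether the response to TAC differed between diets was tested as the difference of the 2 effects over all 11 libraries. In limma 0 members and 0 of the 14729 genes tested passed (0% of genes), with a smallest adjusted p of 0.784. At an unadjusted p below 0.05 there were 679 genes, 4.61% of those tested, and 1 member, Psmb3 (-0.31 ± 0.14, high-fat minus fat-free). The estimate was below 0 for 34 of the 35 members, with a median of -0.16 against -0.03 for all genes, on the deposited scaling, and above 0 in the median under the rescalings. A difference between diets was thus not detectable with these libraries. Set side by side, 25 members lay below 0 on both diets, 4 above 0 on both, and 6 above 0 on the fat-free and below 0 on the high-fat diet. Across the 34 members without Psma8 the 2 diets' fold changes, which share no libraries, correlated at Pearson's r 0.862 and Spearman's rho 0.859, a description across genes that are not independent.

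Because the scaling set the sign, subunits were also compared with one another inside each library, where scaling cancels. With each library rescaled to the same sum of the members, Psmd8 was higher in TAC on the fat-free diet (0.34 ± 0.08, adjusted p = 0.0401) and on the high-fat diet (0.39 ± 0.13, adjusted p = 0.0863), without overlap on either. Psmd8 made 37.3, 38.5 and 36.3 of every 1000 member counts in fat-free TAC, against 29.7, 30.5 and 28.7 in fat-free sham, and 44.6, 34.7 and 39.1 in high-fat TAC, against 29.4 and 30.5 in high-fat sham. Psmc4 was higher on this scale on the fat-free diet (0.27 ± 0.09, adjusted p = 0.08) and Psmd11 on the high-fat diet (0.29 ± 0.09, adjusted p = 0.0788). Psmc4 did not pass on the fat-free diet with any 1 library left out (adjusted p 0.108 to 0.216), and Psmd11 did not pass on the high-fat diet without either sham library or TAC replicate 3 (0.411, 0.39 and 0.154). On this scale 2 members were called higher on each diet, against 13.7% of genes for the fat-free diet and 25% for the high-fat diet, and 0 were called lower, against 4.81% and 6.34% of genes. With 1 library left out the count called higher was 0 or 1 on the fat-free diet and 0 to 5 on the high-fat diet, where it was 0 without either sham library or TAC replicate 3 and 5 without TAC replicate 2. The estimate for Psmd8 stayed between 0.31 and 0.36 on the fat-free diet and between 0.30 and 0.48 on the high-fat diet with each library left out in turn. Psmd8 was no longer called, with an adjusted p above 0.1, without fat-free sham replicate 1 or 3, fat-free TAC replicate 2 or high-fat TAC replicate 3. The same held on the fat-free diet with Myl7 as a covariate (0.102). Leaving out either high-fat sham library left 1 library in that group, so that only the estimate can be read there. This scale was chosen after the data were seen.

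Ratios of pairs chosen after their values were seen were given no test. Per length, Psmd8 over Psmd12 was 1.34, 1.29 and 1.30 in fat-free TAC, against 1.01, 0.98 and 0.99 in fat-free sham, and 1.80, 1.14 and 1.31 in high-fat TAC, against 0.88 and 0.95 in high-fat sham. Psmc4 over Psmc3 was 0.565, 0.563 and 0.517 in fat-free TAC, against 0.411, 0.413 and 0.444 in fat-free sham, and 0.616, 0.466 and 0.555 in high-fat TAC, against 0.403 and 0.428 in high-fat sham. Neither of these ratios overlapped between groups on either diet. A further ratio, Psmd11 over Psmd12, did overlap on the fat-free diet, at 0.702, 0.758 and 0.6201 in fat-free TAC, against 0.6203, 0.504 and 0.643 in fat-free sham. It was 0.757, 0.609 and 0.668 in high-fat TAC, against 0.469 and 0.481 in high-fat sham, without overlap. The mean level of the 14 core subunits over that of the 17 cap subunits was 1.52, 1.54 and 1.54 in high-fat TAC, against 1.63 and 1.65 in high-fat sham, without overlap. It was 1.496, 1.504 and 1.57 in fat-free TAC, against 1.57, 1.66 and 1.58 in fat-free sham, where the highest TAC value met the lowest sham value.

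**Figure D4:**
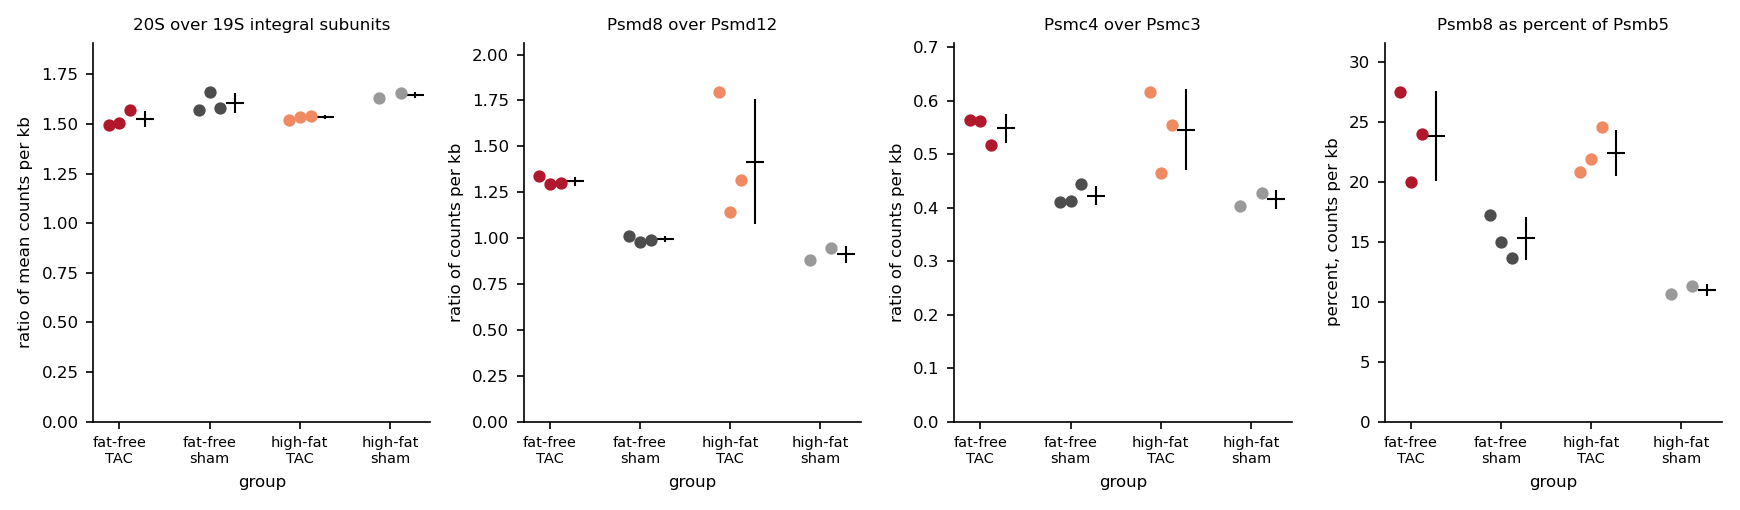
Ratios within each library (points) with the group mean and SD beside them: mean counts per kb of 20S over 19S subunits, Psmd8 over Psmd12, Psmc4 over Psmc3, and the immunoproteasome subunit Psmb8 as a percent of Psmb5. The last 3 are higher in every TAC library than in any sham library of the same diet, and 20S over 19S is lower in the high-fat TAC libraries.

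Summed over all 36 genes, members had 88628, 102443 and 97557 normalized counts in fat-free TAC, against 94091, 106308 and 102199 in fat-free sham. In high-fat TAC they had 88583, 99710 and 104538, against 114287 and 114246 in high-fat sham, where every TAC library was lower. As a share of counts outside the mitochondrial genome the groups overlapped, at 41.8, 42.4 and 44.8 per 10000 in high-fat TAC, against 42.8 and 43.7 in high-fat sham. As a share of all counts the order turned, at 34.2, 31.7 and 33.7 per 10000 in high-fat TAC, against 28.8 and 29.5 in high-fat sham. The fat-free groups overlapped on all 3 scales. Single libraries moved nearly all members together: fat-free TAC replicate 1 and fat-free sham replicate 1 were each the lowest of their group for 32 of 35 members, and high-fat TAC replicate 1 for 28.

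**Figure D5:**
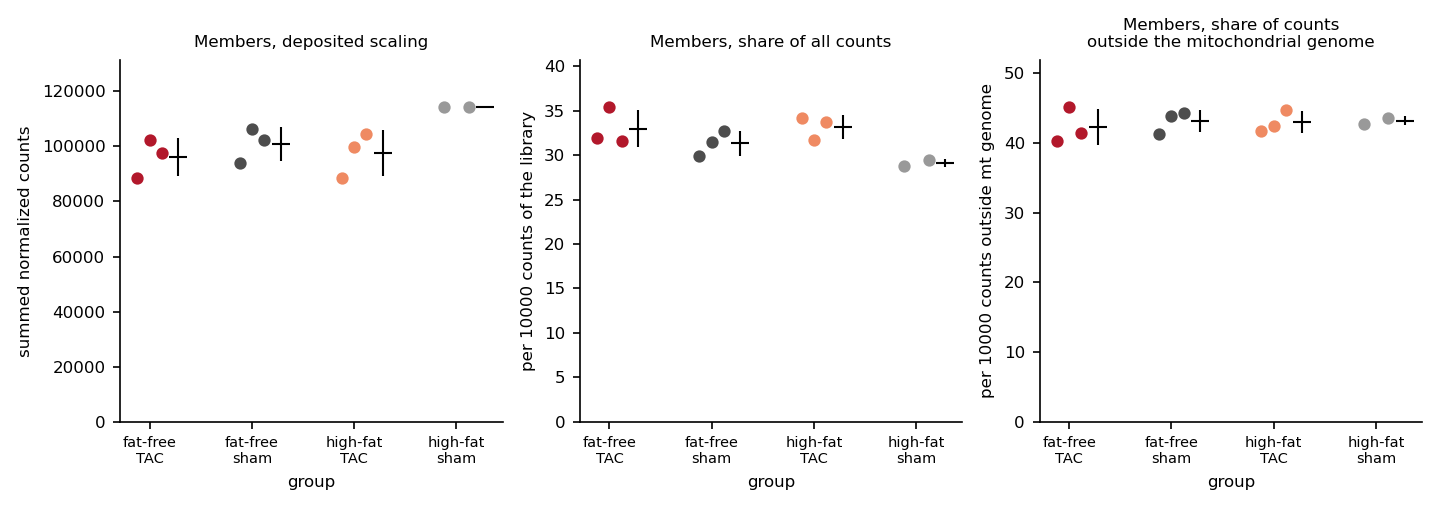
Summed members per library (points, with group mean and SD) as normalized counts on the deposited scaling (left), per 10000 counts of the library (middle) and per 10000 counts outside the mitochondrial genome (right). High-fat TAC libraries are below high-fat sham on the left (88583 to 104538 against 114246 and 114287), above it in the middle and overlapping it on the right.

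Among genes that work with the proteasome, 69 of 70 listed partners were tested. On the high-fat diet 3 rose and 16 fell, with a median of -0.15, against the 16.9% and 14.8% of all genes given above, and on the fat-free diet 5 rose and 2 fell, with a median of -0.05, against 14.2% and 10% of all genes. Chaperones that assemble the core stood among the falls on the high-fat diet, where 3 of 5 fell on the deposited scaling. Psmg2, which with Psmg1 guides assembly of the alpha ring, had 622, 813 and 868 normalized counts in high-fat TAC, against 1159 and 1136 in high-fat sham (-0.59 ± 0.16, adjusted p = 0.0648). Psmg1 had 354, 494 and 458 in high-fat TAC, against 630 and 606 in high-fat sham (-0.52 ± 0.17, adjusted p = 0.0845), and Psmg4 also fell (-0.51 ± 0.15, adjusted p = 0.074). None of the 5 passed on the fat-free diet. Pomp, which drives maturation of the beta ring, did not pass on either diet, at -0.18 on the high-fat and -0.05 on the fat-free diet.

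Of the 5 activators and inhibitor of the core, the nuclear activator Psme3 fell on the high-fat diet (-0.33 ± 0.12, adjusted p = 0.0968) and 0 passed on the fat-free diet. The ubiquitin receptor subunit Adrm1 had 876, 848 and 919 normalized counts in high-fat TAC, against 1207 and 1084 in high-fat sham, and fell (-0.38 ± 0.10, adjusted p = 0.0631). Ecpas, a scaffold that binds core and cap together, fell on both diets, by 0.27 ± 0.10 on the fat-free (adjusted p = 0.0976) and by 0.54 ± 0.17 on the high-fat diet (adjusted p = 0.078). Among the shuttle receptors, which carry ubiquitinated proteins to the proteasome, Ubqln4 fell on the high-fat diet (-0.53 ± 0.17, adjusted p = 0.0826), and none of those tested passed on the fat-free diet. Of 4 genes for proteasome-bound deubiquitinases, ligase and scaffold, Ecpas alone passed on each diet. None of the 6 ubiquitin and E1 genes passed on either diet.

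Among 10 regulators, Stat3 rose on both diets (0.56 ± 0.10 on the fat-free diet, adjusted p = 0.0147, and 0.56 ± 0.13 on the high-fat diet, adjusted p = 0.0533). Nfe2l1, named above for its role in proteasome gene activation, had 12145, 17000 and 14610 normalized counts in high-fat TAC, against 19334 and 18702 in high-fat sham, and did not pass (-0.40 ± 0.18, adjusted p = 0.156). It had 12750, 13886 and 13003 in fat-free TAC, against 14930, 14197 and 14996 in fat-free sham (-0.16 ± 0.09, adjusted p = 0.265). Nfyc, a subunit of the factor that binds CCAAT boxes, fell on the high-fat diet (-0.48 ± 0.12, adjusted p = 0.056), where Stt3a, a subunit of the enzyme that glycosylates proteins in the endoplasmic reticulum, rose (0.73 ± 0.19, adjusted p = 0.0591). Of 12 muscle ubiquitin ligases 4 fell on the high-fat diet, among them the sarcomere ligase Trim63, known as MuRF1 (-0.72 ± 0.22, adjusted p = 0.0775), with Trim54, Stub1 and Asb2 at -0.82, -0.46 and -0.69. Fbxo32, the atrophy ligase atrogin, did not pass on either diet. Cbl was the 1 ligase that passed on the fat-free diet, and rose (0.48 ± 0.15, adjusted p = 0.0707). Of 6 genes of p97 and its cofactors Faf1 fell on the high-fat diet (-0.47 ± 0.14, adjusted p = 0.074), and of 11 autophagy genes Map1lc3a and Map1lc3b did (-0.60 and -0.58), with Map1lc3b also lower on the fat-free diet (-0.32 ± 0.11, adjusted p = 0.0771).

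The inducible catalytic subunits, which replace Psmb5, Psmb6 and Psmb7 in the immunoproteasome, moved apart from their partners. On the fat-free diet Psmb8, Psmb9 and Psmb10 all rose (0.62, 0.68 and 0.56), and on the high-fat diet Psmb8 rose (0.75 ± 0.14, adjusted p = 0.0399) and the other 2 did not pass. Per length, Psmb8 stood at 27.5%, 20.02% and 24.01% of Psmb5 in fat-free TAC, against 17.3%, 15.0% and 13.7% in fat-free sham, and at 20.8%, 21.9% and 24.6% in high-fat TAC, against 10.7% and 11.3% in high-fat sham. These genes are also high in immune cells, and macrophage markers were higher in every TAC library than in sham on both diets. Neutrophil markers (4 of 5 detected, with Ly6g at 0) summed to 168, 56 and 91 in fat-free TAC, against 33, 37 and 46 in fat-free sham, and to 98, 98 and 134 in high-fat TAC, against 134 and 171 in high-fat sham. Lymphocyte markers (8 of 8) summed to 118, 87 and 103 in fat-free TAC, against 44, 73 and 94 in fat-free sham, and to 57, 95 and 89 in high-fat TAC, against 118 and 57 in high-fat sham, overlapping on both diets. The part of these cells in the ratio was not tested.

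Some member counts could include reads of other genes. Exons of 5 members overlap those of another annotated gene, on the opposite strand for 4 (Psma4, Psmc2, Psmc6 and Psmd3) and on the same strand for Psmb5, which overlaps a microRNA gene. Pseudogenes named after Psmb5, Psmb6 and Psmb7 are annotated, 4 in all, and how reads matching several places were counted is not given in the sources used here.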

How the data were processed

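RNA-seq of mouse hearts gave 11 libraries with values, of 12 in the labels. They were matched by group and replicate in their column headers, and 0 columns stayed unmatched. Per the submitters' processing notes, STAR, Subread, featureCounts and DESeq2 were used on build mm10, with no versions. The deposited per-library values are normalized counts, treated as a score, which the authors divided by a size factor within each diet and rounded. Their log2 fold changes are shrunken values that the authors deposited. The p-value column they deposited is adjusted, from DESeq2 at a 10% FDR per the labels. Gene coordinates and lengths came with these values. Depth is known only as normalized totals.

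Genes with at least 10 normalized counts in 3 fat-free libraries, or in 2 for the high-fat diet and for the difference, were tested with limma 3.58.1 (R 4.3.3, data.table, version 1.17.8), with a mean-variance trend, on log2 of the value plus 1, two-sided, Benjamini-Hochberg adjusted over all genes, adjusted p under 0.1. Fold changes on this scale understate those of low genes. Each diet was fitted by itself, and the difference over 11 libraries. Diets were not compared in level. No 2 libraries of a group agreed within sampling noise. Some partner gene results are not reported here. Members and lists were chosen with earlier results of these data known. Every-library values are given for the catalytic subunits, for the 2 members of smallest adjusted p per subcomplex and diet, for members below the filter and for those past the threshold; Psma8 and the pair ratios were added after their values were seen. Alternatives were other scalings, filters, pseudocounts, weights, covariates, a replicate block and each library left out. On simulated data with 200 changed genes, limma recovered 70% of changes of 2-fold with the fat-free libraries (14079 genes). It recovered 38% with the high-fat ones (14350 genes) and 36% for the difference (14561 genes). Of 1.5-fold changes it recovered 16%, 4% and 4%, in the same order. A far larger share of genes was called in the real fits, 24.2% for fat-free and 31.7% for high-fat libraries. With more genes called, the Benjamini-Hochberg cutoff is laxer. The simulated rates thus do not give the recovery of the tests within either diet. Scripts used Python 3.11.15, pandas 2.3.3 and numpy 2.4.6, and figures matplotlib 3.10.9.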

Additional observations from a re-analysis of the deposited data

How the results depend on the processing

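On the fat-free diet the count of members called higher was 0 as reported, 3 when rescaled to equal library totals, 2 when rescaled to totals outside the mitochondrial genome or to equal sums of the members, and 1 with all libraries in one fit. The count lower was 0 as reported and 6 with log2 Myl7 as a covariate. On the high-fat diet the count lower was 7 as reported, 0 under the 3 rescalings, 1 without the filter on low values, 3 with value-wise weights, 12 with Myl7 as a covariate, 15 in one fit with all libraries and 17 in the authors' deposited DESeq2 table. Rescaling to member sums, 1 of the 3, removes by construction any fall that the members share. The count higher there was 13, 2 and 2 under rescaling to library totals, to totals outside the mitochondrial genome and to member sums. Leaving out 1 library gave 0 to 0 called in each direction on the fat-free diet and 0 to 14 lower on the high-fat diet, where sham replicate 2, sham replicate 3 or TAC replicate 3 left out gave 0. Whether the replicate numbers pair the libraries was not settled. Deviations of same-numbered libraries correlated at -0.126 to 0.387, and those of differently numbered ones at -0.383 to 0.286. The highest value was between the fat-free replicates 1, each the lowest of its group for 32 of 35 members. High-fat sham had only 2 libraries, whose deviations mirror each other, so that the high-fat values cannot decide it. With the number as a replicate block, 1 member was called higher on the fat-free diet and 14 lower on the high-fat diet, or 15 with the block and without high-fat TAC replicate 1. Shares of all genes called are given above only for the reported fits, the rescalings and the authors' table. Larger member counts in the other settings are thus not shown to be particular to the members. On the high-fat diet the Myl7 covariate nearly marks TAC replicate 1 alone. For the difference between diets 0 members were called under every alternative run.

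The median of the members turned positive under rescaling to library totals, totals outside the mitochondrial genome and member sums, at 0.202, 0.00571 and 0.0143 on the high-fat diet and at 0.117, 0.0257 and 0.0031 for the difference, which was 0.00629 with Myl7 as a covariate. On the fat-free diet it turned under library totals (0.077) and member sums (0.00333). Rescaling to equal member sums holds the members' median near 0 by construction, so its sign on that scale carries no information. Under library totals the high-fat estimates turned to 0.127 for Psma2, 0.0385 for Psmb3, 0.142 for Psmb5, 0.116 for Psmb6, 0.0699 for Psmb7, 0.0239 for Psmc3 and 0.408 for Psmc4, which was then called higher. The rescalings change every gene of a library by 1 factor, and the cause of the other shifts was not tested. Another 46 estimates of named members changed sign with no call in either setting. When only the 250 bases before the start were read, the shares of the 31 member windows stayed within their 95% binomial intervals, while the ETS share was 6.91% of all windows, against 8.86% as reported, and the CCAAT share 33.8%, against 37.4%. Rescaling to member sums and the block without high-fat TAC replicate 1 were chosen after seeing the data. The high-fat sham group of 2 libraries limits the precision of every high-fat value.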
